A study of Mus musculus with 6 samples.

Results

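The genes described here are 10 genes for non-collagen proteins of bone matrix and for the enzymes and membrane proteins that accompany its mineralization: Bglap, Bglap2, Ibsp, Spp1, Alpl, Ifitm5, Phospho1, Mgp, Smpd3 and Pdpn. They were chosen by name, with earlier results of these data known, so comparisons of their counts with all genes are descriptive. All 10 were found among the 43346 genes of the count table and passed the filter on low counts. The data were RNA-seq gene counts of 6 femur libraries from C57BL/6 mice, an inbred laboratory strain, aged 4 months. In the radiated group a focal X-ray dose of 24 Gy (gray, the unit of absorbed dose) had been given at 6.6 Gy per minute to 5 mm of the distal metaphysis of the right femur. The non-radiated group was the left femur of irradiated animals, the leg on the other side. Both were collected on day 21, ahead of the bone loss that the study saw on day 28, and each group had 3 libraries, numbered 1 to 3. The tissue was the stretch of metaphysis beneath the growth plate, freed of muscle and homogenized whole, and in such bulk RNA fewer cells of a type and less RNA per cell cannot be told apart. The labels do not say that libraries of a group came from separate animals, so p-values measure only the spread between these libraries, which may be technical.

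Bone forms when osteoblasts lay down an organic matrix, mostly type I collagen, and mineral is then deposited in it. Mineral starts in small membrane-bound matrix vesicles that bud from the osteoblast, where phosphatases supply phosphate and remove pyrophosphate, an inhibitor of crystal growth. Acidic and calcium-binding proteins in the matrix then promote or restrain the growth of the crystals. Osteocalcin and bone sialoprotein are textbook products of mature osteoblasts, and matrix Gla protein is best known for keeping cartilage and vessel walls free of mineral.

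Total counts were 34034251 to 48708383 per library. In non-radiated library 2 the row AY036118 held 32.9% of all counts, against 0.321% to 5.61% in the other libraries, and this library had the lowest level of its group for 10 of the 10 genes after scaling. Radiated library 1 had the highest level of its group for 9 of the 10, and radiated library 2 the lowest for 8. Levels are given as CPM, a gene's counts relative to its library's total after that total had been scaled by TMM, a factor computed with the genes that differ most between libraries trimmed away. Transcripts of type I collagen, which are not particular to bone, were abundant: Col1a1 and Col1a2 together made up 0.557% to 1.21% of the counts of each library. Skeletal muscle transcripts were also present: the 12 muscle markers summed to 192, 342 and 167 CPM in non-radiated libraries 1, 2 and 3 and to 753, 2479 and 196 CPM in radiated libraries 1, 2 and 3. The cartilage markers, also 12, summed to 860, 383 and 717 CPM in the non-radiated and 495, 343 and 518 CPM in the radiated libraries. None of these markers was at 0 in all libraries. The libraries with the lowest cartilage sum of their group, non-radiated 2 and radiated 2, were also those with the lowest sum over the 10 genes.

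Of the 10 genes, 9 had a negative log2 fold change in radiated femur, and 1 of them, Ifitm5, was called lower at an adjusted p under 0.05 (edgeR's quasi-likelihood test, Benjamini-Hochberg over all 18757 genes tested). Among all genes tested 49.5% had a negative fold change and 3.24% were called lower, with 7.8% called in either direction. The median log2 fold change of the 10 genes was -0.35, against 0.0023 over all genes tested. That median was -0.53 when non-radiated library 2 was left out, -0.24 when non-radiated library 1 was, and -0.19 with the muscle covariate. At an unadjusted p under 0.05 there were 5 of the 10, all with negative values, against 9.34% of all genes. The library number was also added to the fit as a block, which compares radiated and non-radiated libraries of the same number, a pairing that no label states. With it 4 of the 10 genes were called lower (Ifitm5, Smpd3, Bglap2 and Ibsp), against 3.39% of all genes. Within numbers, 7 of the 10 genes were lower in the radiated library of all 3 numbers, as were 19.6% of all genes tested. By log2 fold change, Ifitm5, Smpd3, Bglap and Bglap2 lay from -1.08 to -0.70, Ibsp and Spp1 at -0.38 and -0.31, and Pdpn, Phospho1, Mgp and Alpl from -0.19 to 0.075. Of the 10 genes, 4 were called lower without radiated library 1 (background 1.71%), 3 without non-radiated library 2 (background 1.99%) and 4 with no filter on low counts (background 2.71%). With the log2 of the summed muscle markers as a covariate edgeR called 0 of the 10 lower (background 2.47%, with 3 of the 10 at an unadjusted p under 0.05).

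**Figure D1:**
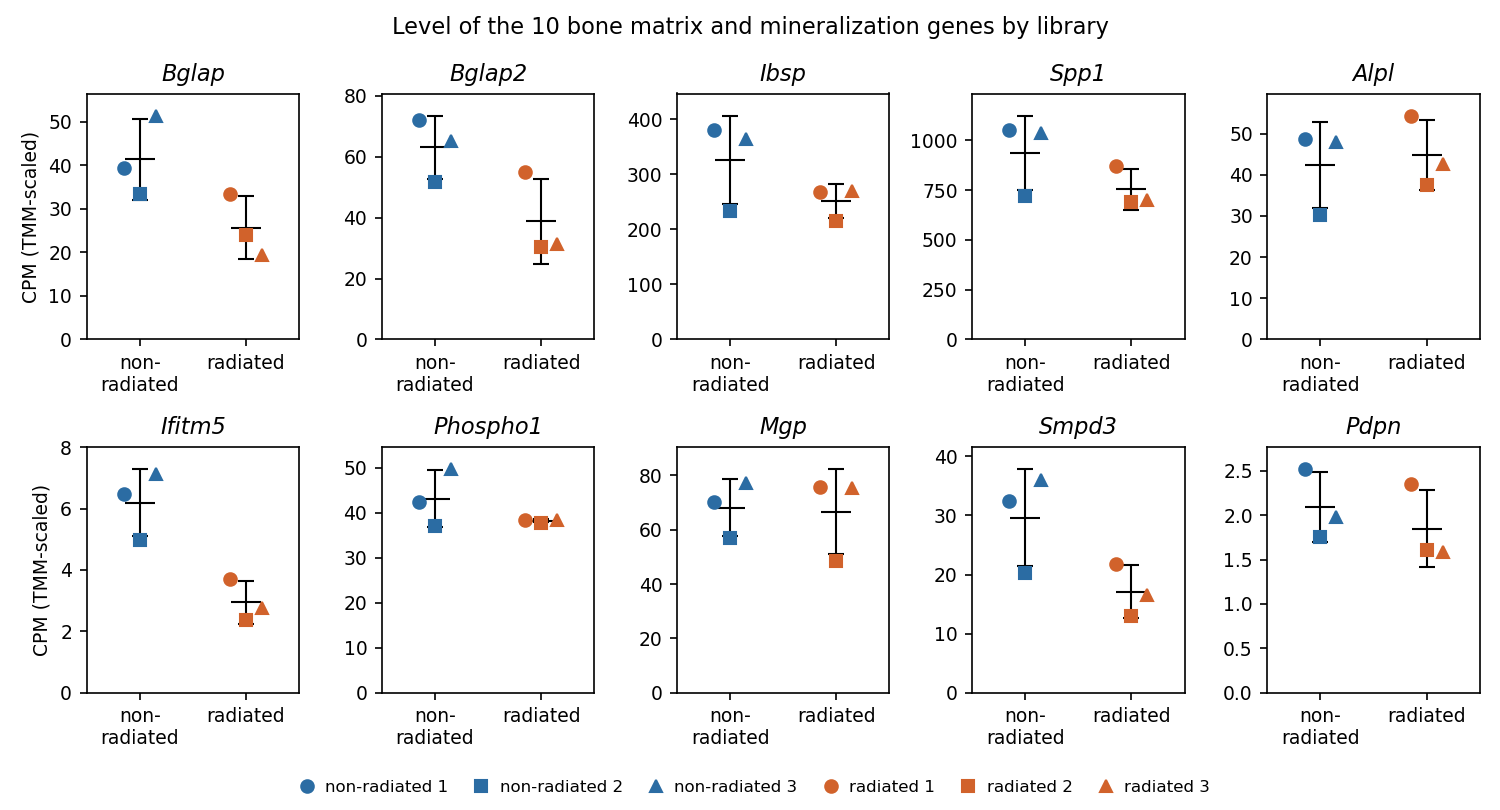
Level of each of the 10 genes in CPM (vertical axes start at 0) in the 3 non-radiated and 3 radiated libraries; horizontal bars are group means and error bars are SD, and the symbol gives the library number. Only for Ifitm5 do all 3 radiated libraries, at 2.36 to 3.72 CPM, lie below all 3 non-radiated ones, at 4.99 to 7.13 CPM.

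Ifitm5 encodes a small membrane protein of osteoblasts, also called BRIL, that is mutated in a form of brittle bone disease. The gene (ENSMUSG00000025489, build mm10, chromosome 7, 140948963 to 140950239) was at 6.47, 4.99 and 7.13 CPM in non-radiated libraries 1, 2 and 3 and at 3.72, 2.36 and 2.76 CPM in radiated libraries 1, 2 and 3. The highest radiated library was below the lowest non-radiated one, a separation in this direction that 11.5% of all genes tested also showed. The group means were 6.20 ± 1.09 and 2.95 ± 0.702 CPM (SD, n = 3 each), a fall to 47.2% of the non-radiated level. The log2 fold change was -1.08 (SE 0.20, adjusted p 0.0108 in edgeR), and the values within numbers 1, 2 and 3 were -0.80, -1.08 and -1.37. Ifitm5 was called in 17 of 18 settings. The exception was the fit with the log2 of the summed muscle markers as a covariate (log2 fold change -0.92, adjusted p 0.0735 in edgeR). Without radiated library 2, which had the most muscle RNA, its log2 fold change was -0.95 and its edgeR adjusted p 0.0252. That fit still held radiated library 1, whose muscle markers summed to 753 CPM, against 167 to 342 CPM in the non-radiated libraries. The part of muscle in the Ifitm5 values was not tested.

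Smpd3 encodes a neutral sphingomyelinase, which splits membrane sphingomyelin into ceramide and phosphocholine, and mice that lack it have poorly mineralized bone. The gene (ENSMUSG00000031906, chromosome 8, 106252548 to 106337988) was at 32.4, 20.3 and 36.0 CPM in the non-radiated libraries and at 21.8, 13.0 and 16.6 CPM in the radiated libraries. Non-radiated library 2 lay just below radiated library 1, so the groups overlapped. The log2 fold change was -0.80 (SE 0.23, adjusted p 0.0666 in edgeR). With the replicate block it was -0.78, and the gene was called (adjusted p 0.00409 in edgeR), and the log2 ratio within numbers 1, 2 and 3 was -0.57, -0.64 and -1.12. It was also called without non-radiated library 2 (-1.01, adjusted p 0.0191 in edgeR) and without radiated library 1 (-1.01, adjusted p 0.0494 in edgeR). Smpd3 was not called when any other 1 library was left out (adjusted p from 0.128 to 0.190 in edgeR). Nor was it called with the muscle covariate (-0.54, adjusted p 0.343 in edgeR). In all, 5 of 18 settings called it. Smpd3 overlaps Prmt7, Gm26786 and Gm10629 in the table, and its counts are uncertain as far as the counting did not use strand.

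Osteocalcin, the vitamin K-dependent protein of mature osteoblasts that binds calcium through carboxylated glutamates, is encoded in the mouse by neighbouring copies on chromosome 3. Bglap (ENSMUSG00000074483) lies at 88383501 to 88384464 and Bglap2 (ENSMUSG00000074486) at 88377736 to 88378699. The coding sequences are shown because their likeness bears on how far counts of the copies can be told apart. They are from GENCODE M21 transcripts (build GRCm38, minus strand), without the stop codon, in lower case with the bases that differ between them in capitals.
Bglap: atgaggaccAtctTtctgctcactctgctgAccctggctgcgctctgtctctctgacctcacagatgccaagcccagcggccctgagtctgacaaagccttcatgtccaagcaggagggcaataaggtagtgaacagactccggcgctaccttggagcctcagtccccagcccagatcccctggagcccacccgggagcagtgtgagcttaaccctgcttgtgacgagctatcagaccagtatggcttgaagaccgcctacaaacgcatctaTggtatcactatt
Bglap2: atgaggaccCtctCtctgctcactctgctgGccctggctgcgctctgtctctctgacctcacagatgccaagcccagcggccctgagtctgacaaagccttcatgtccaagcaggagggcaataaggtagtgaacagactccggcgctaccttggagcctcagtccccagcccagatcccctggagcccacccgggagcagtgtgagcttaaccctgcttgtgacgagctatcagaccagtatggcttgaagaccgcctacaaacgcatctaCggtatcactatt
The copies differ at 4 of 285 coding bases (98.6% identity), and the longest stretch without a difference is 241 bases. Reads that lie within such a stretch fit both genes, so the split of counts between Bglap and Bglap2 is uncertain. The copy Bglap3 differs from Bglap at 13 of the 285 bases and from Bglap2 at 9.

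Bglap was at 39.4, 33.3 and 51.3 CPM in the non-radiated and 33.4, 23.9 and 19.3 CPM in the radiated libraries. Bglap2 was at 72.2, 51.8 and 65.2 CPM in the non-radiated and 54.9, 30.4 and 31.2 CPM in the radiated libraries. For each gene radiated libraries 2 and 3 were below all 3 non-radiated libraries, while radiated library 1 was level with or above non-radiated library 2. Both log2 fold changes were -0.70 (SE 0.20 for Bglap and 0.22 for Bglap2), and neither gene was called (adjusted p 0.0729 and 0.0848 in edgeR). With the replicate block Bglap2 was called (-0.74, adjusted p 0.00534 in edgeR), whereas Bglap was not (-0.71, adjusted p 0.0548 in edgeR). Without radiated library 1 each was called, Bglap at -0.94 (adjusted p 0.0258 in edgeR) and Bglap2 at -1.03 (adjusted p 0.00437 in edgeR). Neither was called when any other 1 library was left out. In those fits the edgeR adjusted p ran from 0.0635 to 0.168 for Bglap and from 0.0882 to 0.247 for Bglap2. With the muscle covariate it was 0.160 and 0.275. Bglap was called in 2 and Bglap2 in 3 of 17 settings. Bglap2 took 55.9% to 64.7% of the joint counts of the pair in the non-radiated and 56.0% to 62.1% in the radiated libraries, and these ranges overlapped. When the counts of all 3 copies were summed, osteocalcin stood at 113, 85.2 and 117 CPM in the non-radiated and 88.8, 54.5 and 50.9 CPM in the radiated libraries, with a log2 fold change of -0.70 (SE 0.20, adjusted p 0.0676 in edgeR). Bglap3 itself was at 41, 3 and 22 counts in the non-radiated and 17, 10 and 14 counts in the radiated libraries, with no call (adjusted p 0.406 in edgeR).

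Bone sialoprotein and osteopontin are acidic phosphoproteins of a gene cluster on chromosome 5, and each binds integrins on cells. Ibsp, the bone sialoprotein gene, whose product promotes the first mineral crystals (ENSMUSG00000029306, chromosome 5, 104299171 to 104311469), was at 380, 234 and 365 CPM in the non-radiated and 268, 215 and 269 CPM in the radiated libraries. Non-radiated library 2 lay within the radiated range, and non-radiated libraries 1 and 3 lay above all radiated ones. The log2 fold change of Ibsp was -0.38 (SE 0.17, adjusted p 0.226 in edgeR). With the replicate block it was -0.36 (adjusted p 0.0315 in edgeR), and without non-radiated library 2 it was -0.59 (adjusted p 0.0183 in edgeR). It was smaller and not called with the muscle covariate (-0.15, adjusted p 0.749 in edgeR), with library totals (-0.24, adjusted p 0.705) and when non-radiated library 1 was left out (-0.26, adjusted p 0.509).

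Spp1 encodes osteopontin, which restrains crystal growth and anchors osteoclasts, and which macrophages, osteoclasts and hypertrophic chondrocytes make as well as osteoblasts. Spp1 (ENSMUSG00000029304, chromosome 5, 104435118 to 104441050) was at 1053, 722 and 1035 CPM in the non-radiated and 873, 688 and 702 CPM in the radiated libraries. Non-radiated library 2 again lay within the radiated range. Its log2 fold change was -0.31 (SE 0.15, adjusted p 0.264 in edgeR), with a 95% interval from -0.65 to 0.022, and no setting called it. Leaving out 1 library moved it between -0.48 (non-radiated library 2) and -0.22 (non-radiated library 1). Radiated libraries were lower within all 3 numbers, at -0.27, -0.071 and -0.56. Spp1 alone made up 58.5% to 62.7% of the summed CPM of the 10 genes in each library. Beside it, the 8 macrophage markers summed to 752 to 798 CPM in the non-radiated and 953 to 1135 CPM in the radiated libraries, with 6 of 8 called higher (background 4.56% of all genes). The 8 osteoclast markers summed to 1087 to 1492 CPM in the non-radiated and 1245 to 1472 CPM in the radiated libraries, with 1 of 8 called higher. No marker of either list was at 0 in all libraries, and the part of these cells in the Spp1 values was not tested.

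The promoters of 3 of the 10 genes are shown, searched for the binding core of Runx2, the main transcription factor of osteoblasts (its own values are further on). Each window is from RefSeq (build GRCm38.p6), 250 bases before to 50 bases after an annotated start, read 5′ to 3′ on the gene's strand. Capitals mark TGTGGT or its reverse complement ACCACA, the core of the RUNX motif.
Bglap, chr3:88384417-88384716, minus strand: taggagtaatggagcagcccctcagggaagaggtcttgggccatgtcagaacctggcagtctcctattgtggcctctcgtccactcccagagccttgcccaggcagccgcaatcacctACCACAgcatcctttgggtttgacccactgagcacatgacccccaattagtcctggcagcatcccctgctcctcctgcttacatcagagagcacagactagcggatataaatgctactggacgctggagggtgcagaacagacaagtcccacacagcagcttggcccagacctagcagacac
Spp1, chr5:104434861-104435160, plus strand: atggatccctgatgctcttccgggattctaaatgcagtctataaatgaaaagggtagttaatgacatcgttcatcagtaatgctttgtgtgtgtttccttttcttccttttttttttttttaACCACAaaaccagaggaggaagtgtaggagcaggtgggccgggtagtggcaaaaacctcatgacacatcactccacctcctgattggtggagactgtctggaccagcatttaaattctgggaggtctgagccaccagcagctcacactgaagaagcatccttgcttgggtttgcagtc
Ifitm5, chr7:140950194-140950493, minus strand: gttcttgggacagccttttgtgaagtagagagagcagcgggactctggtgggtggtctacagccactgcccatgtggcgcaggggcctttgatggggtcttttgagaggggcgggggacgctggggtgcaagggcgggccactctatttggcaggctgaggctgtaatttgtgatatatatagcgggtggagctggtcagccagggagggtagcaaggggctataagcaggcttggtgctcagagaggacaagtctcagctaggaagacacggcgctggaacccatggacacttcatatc
The RUNX core began at -132 relative to the start in Bglap and at -128 in Spp1, and these letters were not in the Ifitm5 window. Windows were given for 7 of the 10 genes, 9 windows in all. Only Bglap and Spp1 held the core, in 1 window each, and 16.8% of 32851 windows of the same length held it. A further core, TAATTA, the letters many homeodomain proteins bind, was in 1 other Spp1 window and in 5.29% of all windows. A match describes letters only, and binding of Runx2 or its part in the values of these genes was not tested.

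Alpl and Phospho1 encode phosphatases of matrix vesicles: tissue-nonspecific alkaline phosphatase hydrolyses pyrophosphate at the membrane, and PHOSPHO1 frees phosphate from phosphocholine inside the vesicle. Alpl (ENSMUSG00000028766, chromosome 4, 137741733 to 137796384) was at 48.8, 30.3 and 47.9 CPM in the non-radiated and 54.3, 37.5 and 42.6 CPM in the radiated libraries. The groups overlapped, and radiated library 1 was the highest of all 6. The log2 fold change of Alpl was 0.075, with a 95% interval from -0.34 to 0.49 (adjusted p 0.865 in edgeR). Its sign was negative without non-radiated library 2 (-0.13) or radiated library 1 (-0.084).

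Phospho1 (ENSMUSG00000050860, chromosome 11, 95824499 to 95832140) was at 42.4, 37.1 and 49.7 CPM in the non-radiated and 38.4, 37.8 and 38.3 CPM in the radiated libraries. Its radiated libraries were almost level with one another (38.2 ± 0.350 CPM, SD, n = 3) and lay between non-radiated libraries 2 and 1. The log2 fold change was -0.18, with a 95% interval from -0.40 to 0.042 (adjusted p 0.344 in edgeR). It was -0.29 when non-radiated library 2 was left out, -0.066 when non-radiated library 3 was, and -0.0047 with library totals, with no call. Phospho1 overlaps Zfp652 and Abi3 in the table and is uncertain in the same way as Smpd3.

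Mgp encodes matrix Gla protein, a carboxylated inhibitor of calcification made by chondrocytes, vascular smooth muscle and stromal cells. Mgp (ENSMUSG00000030218, chromosome 6, 136872436 to 136875805) was at 70.1, 56.9 and 77.3 CPM in the non-radiated and 75.8, 48.6 and 75.5 CPM in the radiated libraries. The lowest library of each group carried the number 2, and the groups overlapped. Its log2 fold change was -0.035, with a 95% interval from -0.41 to 0.34 (adjusted p 0.934 in edgeR), and the sign changed in 5 of 17 alternatives. Of 7 markers of vascular smooth muscle and pericytes 6 were tested, and they summed to 140 to 151 CPM in the non-radiated and 159 to 207 CPM in the radiated libraries. Of these, 3 were called higher (background 4.56%), and none was at 0 in all libraries. By library the sum was 182, 207 and 159 CPM in radiated libraries 1, 2 and 3, highest where the muscle sum was highest. In non-radiated libraries 1, 2 and 3 it was 151, 140 and 145 CPM, lowest where the muscle sum was highest. The part of skeletal muscle RNA in this sum, and of these markers' cells in the Mgp values, was not tested.

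Pdpn encodes podoplanin, a membrane glycoprotein of osteoblasts that are becoming osteocytes, and also of lymphatic endothelium and some stromal cells. Pdpn (ENSMUSG00000028583, chromosome 4, 143267431 to 143299564) had the fewest counts of the 10 genes, 44 to 92 per library, and was at 2.52, 1.76 and 1.98 CPM in the non-radiated and 2.35, 1.61 and 1.59 CPM in the radiated libraries. Radiated library 1 lay inside the non-radiated range, and the other radiated libraries lay below it. The log2 fold change was -0.19, with a 95% interval from -0.68 to 0.30 (adjusted p 0.692 in edgeR). When 1 library was left out it ranged from -0.39 (radiated library 1) to -0.028 (non-radiated library 1), with no call. The 6 lymphatic markers summed to 185 to 206 CPM in the non-radiated and 143 to 154 CPM in the radiated libraries. That sum rested mostly on Reln, Mmrn1 and Flt4, with 20528, 10651 and 8556 counts over all libraries. Lyve1, Prox1 and Ccl21a had 463, 95 and 100, so the sum is no measure of lymphatic endothelium. The genes were also divided: 3 had negative and 3 positive log2 fold changes, from -1.40 to 2.86 with a median of 0.13. Of these 6 genes 1 was called lower (background 3.24%), 0 were called higher by edgeR (2 had an unadjusted p under 0.05), and none was at 0 in all libraries. Their part in the Pdpn values was not tested.

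**Figure D2:**
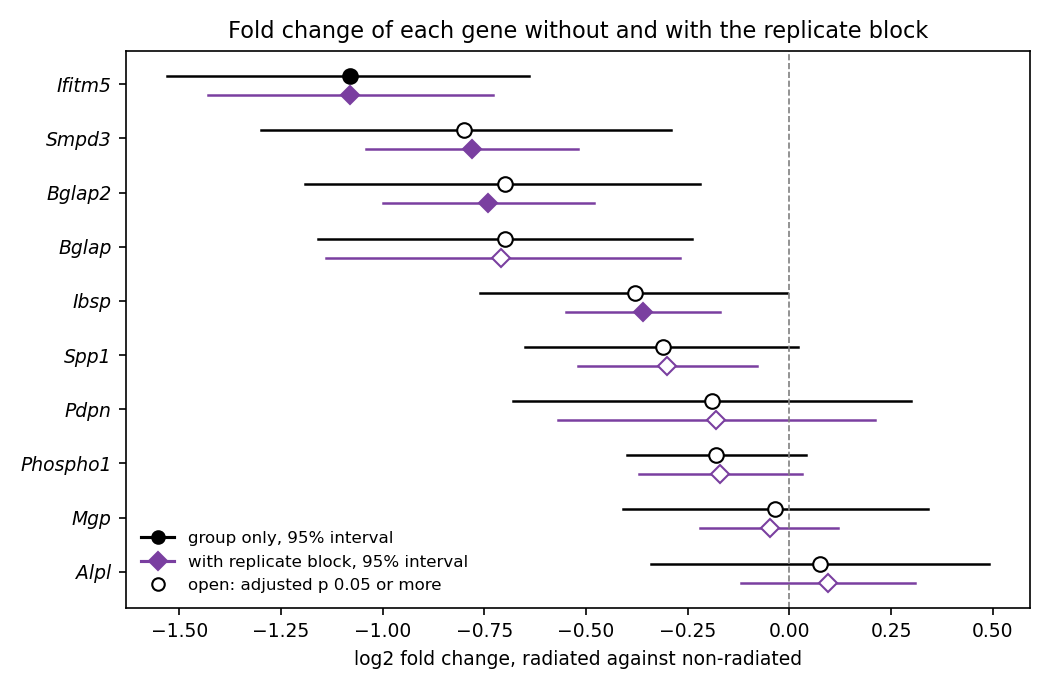
Log2 fold change (horizontal axis) of each of the 10 genes with its 95% interval, from the fit on group alone (black circles) and with the replicate block (purple diamonds); filled symbols are called. Ifitm5 at -1.08 is filled in both fits, and Smpd3, Bglap2 and Ibsp are filled only with the block.

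Levels of different genes were compared per kilobase of the gene length given with the counts. That length is shorter than the span of the coordinates above, at 618 bases for Bglap and 4033 for Alpl. In the non-radiated libraries Spp1 had the highest level, 568 ± 113 CPM per kilobase (SD, n = 3), followed by Ibsp (158 ± 38.9), Bglap2 (134 ± 22.0), Mgp (114 ± 17.4) and Bglap (66.9 ± 14.9). Phospho1 (21.2 ± 3.12), Alpl (10.5 ± 2.59), Ifitm5 (8.75 ± 1.55), Smpd3 (5.74 ± 1.60) and Pdpn (1.15 ± 0.217) made up the lower part of the order on the same scale. The ranges of neighbours overlapped for Ibsp and Bglap2, for Bglap2 and Mgp, and for Alpl and Ifitm5, and not for the other neighbours. In the radiated libraries the level of Spp1 was 458 ± 62.7 CPM per kilobase and that of Ibsp 121 ± 15.1. There Mgp (111 ± 26.2 CPM per kilobase) stood before Bglap2 (82.5 ± 29.5), each overlapping its neighbour above, and the order was otherwise the one above. The level of Ifitm5 was 4.16 ± 0.992 CPM per kilobase in the radiated libraries, so that its range touched that of Smpd3 (3.33 ± 0.865) and no longer that of Alpl (11.1 ± 2.13).

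Type I collagen is the scaffold of the mineral, and its genes, which osteoblasts express strongly and fibroblasts and other stromal cells express too, served as a reference within each library. Col1a1 was at 5435, 4079 and 6185 CPM in the non-radiated and 3767, 2984 and 3507 CPM in the radiated libraries, a log2 fold change of -0.61 (SE 0.16, adjusted p 0.0470 in edgeR), a call lost in 8 of 17 alternatives. Those include leaving out non-radiated library 1 or 3 or any 1 radiated library (adjusted p from 0.0786 to 0.150 in edgeR). Col1a2 had a log2 fold change of -0.64 (adjusted p 0.0535 in edgeR, and 0.00947 with the replicate block). For both collagen genes all radiated libraries were below all non-radiated ones, as they were for 11.5% of all genes tested. Per 10000 counts of both collagen genes, Ifitm5 had 6.07, 6.48 and 6.06 counts in the non-radiated and 5.10, 4.18 and 4.18 in the radiated libraries. This ratio was lower in all radiated than in all non-radiated libraries, as it was for 0.56% of all genes tested. The mean log2 difference of that ratio was -0.47 for Ifitm5, and -0.17, -0.13 and -0.10 for Smpd3, Bglap2 and Bglap, whose groups overlapped.

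In the same ratio to collagen 6 of the 10 genes, Ibsp, Spp1, Pdpn, Phospho1, Mgp and Alpl, were higher in all radiated than in all non-radiated libraries, as were 54.2% of all genes tested. The differences ran from 0.25 for Ibsp to 0.71 for Alpl, against a median of 0.61 over all genes tested. Alpl had 45.8, 39.3 and 40.7 counts per 10000 collagen counts in the non-radiated and 74.3, 66.6 and 64.7 in the radiated libraries. Mgp had 65.8, 73.8 and 65.8 in the non-radiated and 104, 86.2 and 115 in the radiated libraries. In number 2 as in the other numbers Alpl and Mgp were higher in the radiated library on this ratio, by 0.76 and 0.22 on the log2 scale. A ratio of this kind shows unequal change between genes and not which of them changed.

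**Figure D3:**
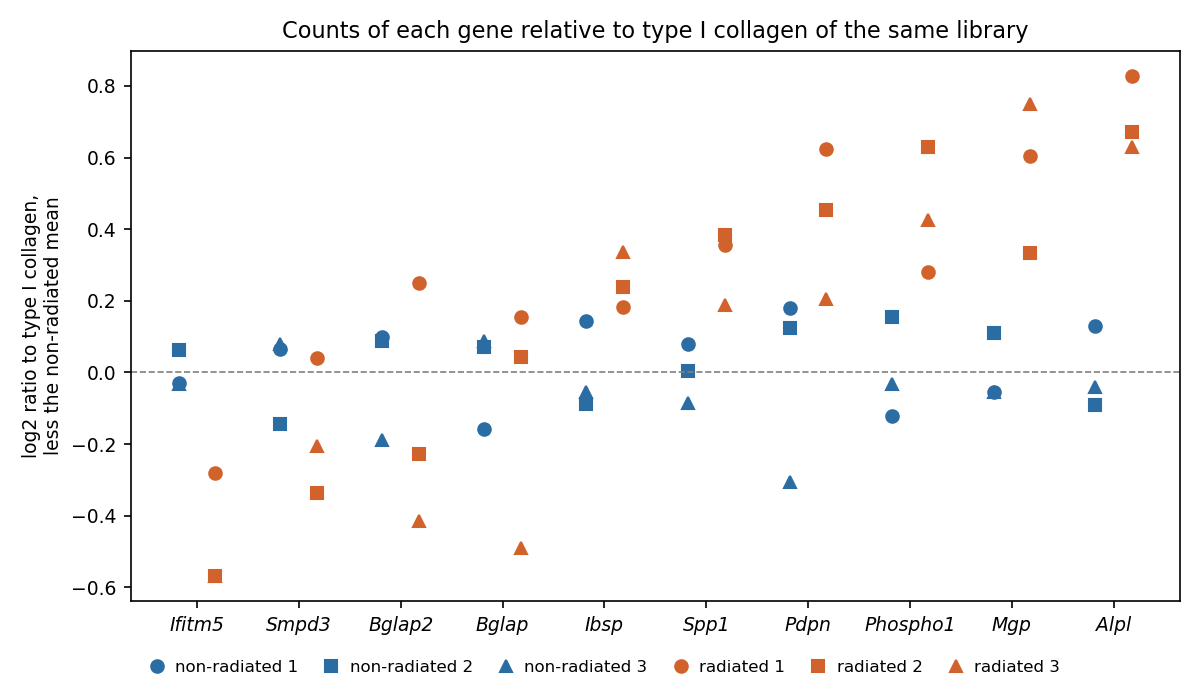
Log2 ratio of each gene's counts to the counts of Col1a1 and Col1a2 in the same library, with the mean of the non-radiated libraries set to 0 (vertical axis), for 3 non-radiated (blue) and 3 radiated (orange) libraries; symbols give the library number. Ifitm5 lies lowest, with a mean difference of -0.47, and Alpl highest, at 0.71.

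How the 10 genes varied over the 6 libraries was described by profiles of log2 CPM, each centred on its own mean, and by the root mean square difference between profiles. Ibsp and Spp1 were the closest pair, at 0.116. Ifitm5 and Smpd3 were each other's closest, at 0.184, and Alpl and Mgp likewise, at 0.191. The closest to Bglap was Bglap2, at 0.194. Ifitm5 and Alpl were the farthest apart, at 0.592. The median profile of the 10 genes was 0.36, -0.13 and 0.34 in the non-radiated and 0.071, -0.40 and -0.26 in the radiated libraries, so non-radiated library 2 stood below radiated library 1. Among 9561 other genes that averaged 10 CPM or more, those with the profiles most like this median included Col5a2 (0.0354), Adam12 (0.0587), Sp7 (0.0599) and Itga10 (0.0675). None of these 4 was called between groups, with log2 fold changes of -0.41, -0.35, -0.51 and -0.50 in that order and edgeR adjusted p of 0.145, 0.197, 0.0814 and 0.0583.

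Other genes of matrix and mineralization, and receptors of the proteins described, were taken from 7 lists of 39 genes. Of these, 35 were tested. These lists too were chosen with earlier results of the data known. In all, 7 of the 35 were called lower (background 3.24%) and 1 was called higher (background 4.56%), with a median log2 fold change of -0.12. With the replicate block 10 of the 35 were called lower (background 3.39%) and 1 higher (background 1034 of 18757 genes). In each fit the list of receptors held 3 of the lower calls and the 1 higher call. Of the osteoblast regulators, 1 of 5 tested was called lower, and 3 of 5 with the replicate block. The gene called in both fits was Runx2, at 93.1, 83.6 and 85.7 CPM in the non-radiated and 68.9, 60.1 and 60.3 CPM in the radiated libraries, a log2 fold change of -0.47 (SE 0.07, adjusted p 0.00396 in edgeR). Its groups did not overlap, a separation in this direction that 11.5% of all genes tested showed. The call of Runx2 was lost only with library totals in place of TMM (-0.29, adjusted p 0.640 in edgeR) among 17 alternatives. Sp7, which acts after Runx2 in osteoblasts, had a log2 fold change of -0.51 (adjusted p 0.0814 in edgeR, and 0.0117 with the replicate block).

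Of the 6 genes for matrix vesicles and sphingomyelin, 1 was called lower (background 3.24%). Sgms2, a sphingomyelin synthase that makes the lipid Smpd3 cleaves, was at 196, 162 and 192 CPM in the non-radiated and 130, 117 and 128 CPM in the radiated libraries (log2 fold change -0.55, SE 0.08, adjusted p 0.00345 in edgeR). Its groups did not overlap (background 11.5% in this direction), and its call too was lost only with library totals (-0.38, adjusted p 0.437 in edgeR). The annexins of the vesicle membrane, Anxa2, Anxa5 and Anxa6, had log2 fold changes of -0.087, -0.051 and 0.17 and were not called. Of the 6 genes for phosphate and pyrophosphate, 1 was called lower (background 3.24%). This was Enpp6, a choline phosphodiesterase that yields phosphocholine, at 16.3, 13.3 and 15.8 CPM in the non-radiated and 12.4, 10.4 and 11.4 CPM in the radiated libraries (log2 fold change -0.42, adjusted p 0.0481 in edgeR). It lost that call in 9 of 17 alternatives, including the removal of non-radiated library 1 or 3 or of any 1 radiated library (adjusted p from 0.0799 to 0.159 in edgeR). Enpp1, which makes pyrophosphate, had a log2 fold change of -0.32 (adjusted p 0.167 in edgeR), and Ank, which exports it, one of -0.084 (adjusted p 0.440 in edgeR). None of the 5 genes for carboxylation, phosphorylation and cleavage of matrix proteins (Ggcx, Vkorc1, Vkorc1l1, Fam20c and Furin) was called, and none had an unadjusted p under 0.05 by edgeR.

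Of 7 other bone matrix genes 5 were tested and 0 were called by edgeR with the filter on low counts, with or without the block, and 1, Dmp1, had an unadjusted p under 0.05. Dmp1, an osteocyte protein that promotes mineral, had a log2 fold change of -0.40 (adjusted p 0.124 in edgeR), and it was called by DESeq2's Wald test (adjusted p 0.00934, background 4.55% lower) and by edgeR with no filter (adjusted p 0.0215). Mepe, another osteocyte protein, was at -0.12 and Sparc, or osteonectin, at -0.29 (adjusted p 0.762 and 0.365 in edgeR). Among receptors of the proteins described, 4 of 6 tested were called in either direction (background 7.8%). Clec1b, the platelet receptor for podoplanin, was at 50.1, 50.1 and 47.2 CPM in the non-radiated and 17.8, 18 and 18.3 CPM in the radiated libraries (log2 fold change -1.45, SE 0.063, adjusted p 5.94e-06 in edgeR). Itgb3, an integrin subunit through which osteopontin and bone sialoprotein bind and which platelets carry in abundance, had a log2 fold change of -1.09 (SE 0.06, adjusted p 1.43e-05 in edgeR). Cd44, an osteopontin receptor, was called lower at -0.25 (adjusted p 0.0270 in edgeR), and Itga9, an integrin subunit that binds osteopontin, higher at 0.30 (adjusted p 0.0316 in edgeR). The calls of Cd44 and Itga9 were each lost in 8 of 17 alternatives, among them every fit that left out 1 library except the one without non-radiated library 3 (adjusted p from 0.0522 to 0.133 in edgeR in the others). Gprc6a, proposed as a receptor for osteocalcin, had 0 counts in every library, which allows up to 3 counts in each.

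**Figure D4:**
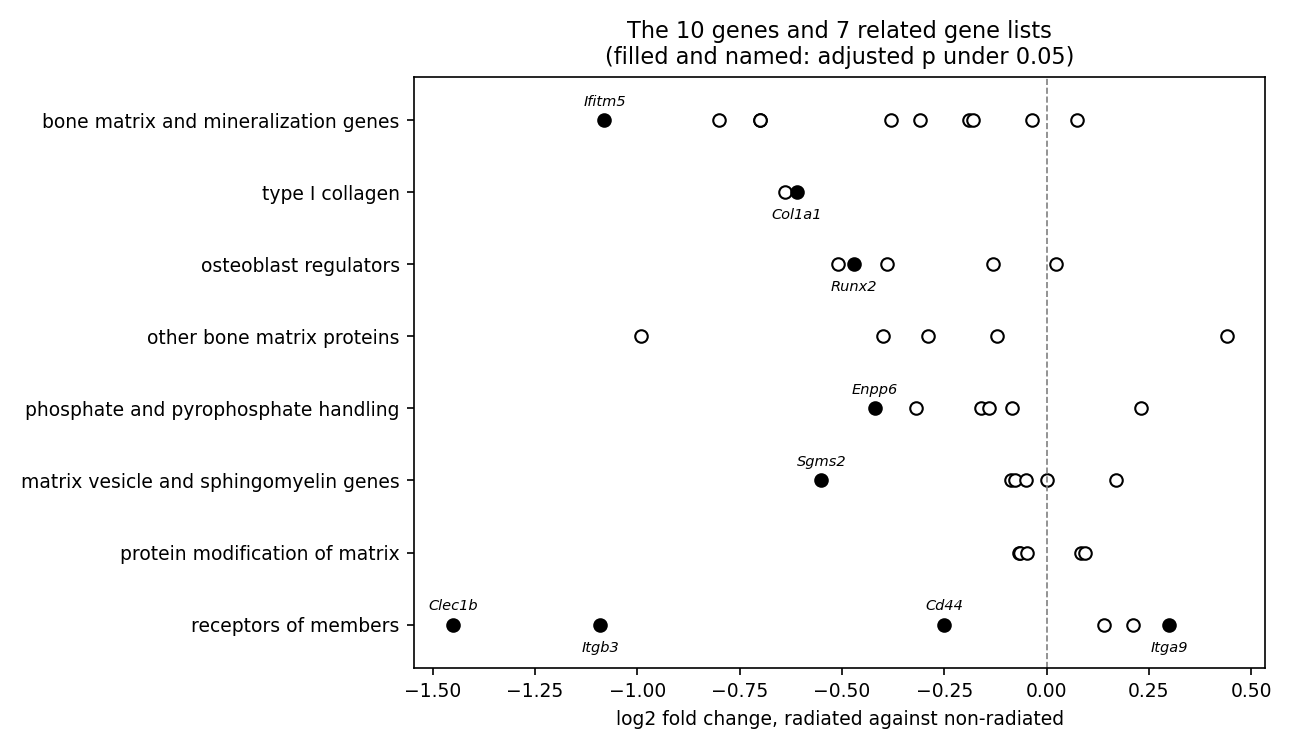
Log2 fold change (horizontal axis) of the 10 genes and of the tested genes in 7 related lists (rows), 1 point per gene; filled, named points are called. Among the called genes Clec1b is lowest at -1.45 and Itga9, at 0.30, is the only one above 0.

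Markers of other cells were set beside these values. Over the 12 cartilage markers the median log2 fold change was -0.30, with 1 called higher (background 4.56%) and 0 called lower by edgeR (background 3.24%). Of the 12, 3 had an unadjusted p under 0.05, and 2 were called lower with the replicate block (background 3.39%). The 8 adipocyte markers summed to 189 to 212 CPM in the non-radiated and 392 to 511 CPM in the radiated libraries, and all 8 were called higher (background 4.56%). The 12 muscle markers had a median log2 fold change of 2.32, with 0 called by edgeR although 12 had an unadjusted p under 0.05. With the replicate block 10 were called higher (background 1034 of 18757 genes). Without both libraries numbered 2, each the library with the highest muscle sum of its group, Ifitm5, Smpd3 and Ibsp were called lower (3 of 10, background 1.74%), with log2 fold changes of -1.08, -0.84 and -0.47 and edgeR adjusted p of 0.0121, 0.00682 and 0.0157. The part of muscle, cartilage and fat cells in the values of the 10 genes was not tested.

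**Figure D5:**
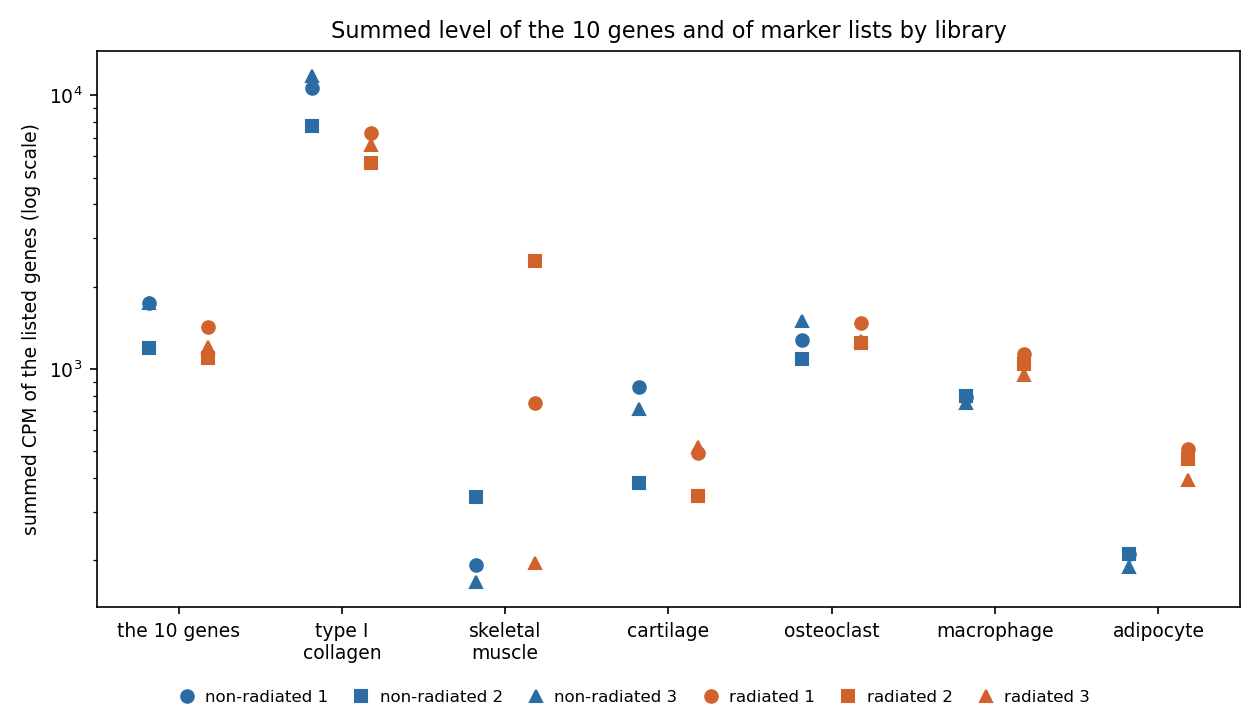
Summed CPM (vertical axis, log scale) of the 10 genes, of type I collagen and of 5 marker lists in the 3 non-radiated (blue) and 3 radiated (orange) libraries; symbols give the library number. The muscle sum of radiated library 2, 2479 CPM, stands apart, and non-radiated library 2 is the lowest of its group for the 10 genes, collagen, cartilage and osteoclasts.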

How the data were processed

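Raw gene counts of 6 libraries (3 radiated, 3 non-radiated femurs) were used as deposited by the authors, with whole numbers per gene per the file headers. The table's RPKM, also made by the authors, were not used. STAR 2.5.2b, Subread, featureCounts and the build mm10 are named in the submitters' processing notes. The mRNA kit was stranded per the labels' protocols, and whether counting used strand, and the annotation, are not given in the sources used here. Coordinates are those of the table, counted from 1, and 8 of the 10 genes have the same start and end in GENCODE M21.

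Genes were filtered with edgeR's filterByExpr (minimum count 10, minimum total 15), scaled by TMM and tested with glmQLFit and glmQLFTest on group in edgeR 4.0.16 (R 4.3.3), with Benjamini-Hochberg adjustment over 18757 genes. A gene is called where its adjusted p is under 0.05. The standard error is the fold change on the log2 scale over the root of the F statistic. The fit was run on simulated counts that had a dispersion shared by all genes and no pairing by number. That run cannot show how the fit performs on these libraries. Alternatives were DESeq2 1.42.0 (size factors, Wald test), library totals with and without AY036118 and Gm26917, no filter, a mean of at least 1 CPM, limma-voom (limma 3.58.1), the replicate block, a muscle covariate, summed osteocalcin copies and leaving out each library. The muscle covariate was the log2 of the summed CPM of the 12 muscle markers. Leaving out both libraries numbered 2 was chosen after seeing the data. Members and lists were chosen with earlier results of these data known. Named were the 10 genes, up to 4 called genes per related list with the smallest p, 11 further genes set by name, and the 5 genes of most similar profile (log2 CPM with a prior count of 2), of which 1 is not reported here. The annexins, the genes for protein modification, the lymphatic markers and Gprc6a are outside that rule and were named after their values were seen. Protein sequences were not used here.

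Both groups carry the numbers 1 to 3. Deviations from group means correlated at 0.166, 0.277 and 0.187 for the same numbers 1, 2 and 3 across 18757 genes, and at -0.170 to -0.00824 for different numbers. No label ties a number to an animal. Because deviations within a group cancel, the correlations for the same and for different numbers are not independent of each other. The check cannot tell libraries of the same animal from libraries handled together. The numbers were taken to pair the libraries, and the replicate block rests on that assumption.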

Additional observations from a re-analysis of the deposited data

How the results depend on the processing

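Over 26 named genes and 17 alternatives, 362 of 438 values kept their direction and side of the threshold, 36 lost a call, 29 gained one and 11 changed sign. Alpl changed sign when non-radiated library 2 (-0.13) or radiated library 1 (-0.084) was left out and without both libraries numbered 2 (-0.0013), and ran from -0.13 to 0.19 when 1 library was left out. Mgp changed sign with library totals (0.13), with the muscle covariate (0.27), without both libraries numbered 2 (0.036), and when non-radiated library 3 (0.061) or radiated library 2 (0.15) was left out, and ran from -0.16 to 0.15 when 1 library was left out. Ank changed sign with library totals (0.11). Mepe did so with library totals (0.032) and without non-radiated library 1 (0.006), and ran from -0.30 to 0.006 when 1 library was left out. None of these 4 genes was called in any setting run. Of the 10 genes 1 was called, and this became 4 with no filter, 4 with the replicate block, 0 with the muscle covariate (where edgeR called 1079 of all genes and 3 of the 10 had an unadjusted p under 0.05) and 3 without both libraries numbered 2. It ran from 1 to 4 when 1 library was left out (3 without non-radiated library 2, 4 without radiated library 1). The cause was not tested. Of all genes 1463 were called, from 764 (without radiated library 1) to 1376 (without non-radiated library 3) when 1 library was left out, with 819 and 905 in the absence of non-radiated library 2 and 1, and 779 without both libraries numbered 2. The replicate block gave 1670, and among the 26 named genes it changed the calls of Bglap2, Ibsp, Smpd3, Sp7 and Col1a2 and no other. Library totals moved the median over all genes to 0.19 on the log2 scale, where that of the 10 genes was -0.20, and the share of higher calls from 58.5% to 85.4%.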
